A study of Mus musculus with 15 samples.

Results

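The CpGs described here are those closest to the centromeres of the mouse autosomes: the listed positions on chromosomes 1 to 19 that lie under 6 Mb in the mm10 build. They were chosen by position alone, and they number 4085 of the 204492 CpGs listed for every library, or 2.0% of them. Mean read counts per CpG had an overall median of 32, and 84 of the 4085 had at least 5 times that value (160 counts or more). These 84 deep CpGs held 49.0% of all read counts of the chromosome starts and are described apart from the 4001 CpGs of ordinary depth. Just inside the bound were chromosome 9 positions 3000341 and 3023874, with mean counts of 164 each, and 3023914 with 167; just outside it were chromosome 9 position 3024399 with 153 and chromosome 4 positions 3090814 and 3090856 with 145 each.

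The series profiled sperm DNA of C57BL/6 male mice of the generation labelled G1 by reduced representation bisulfite sequencing. In this assay the enzyme MspI cuts DNA at CCGG, the short fragments are treated with bisulfite and sequenced, and cytosines that stay unconverted are counted as methylated. There were 8 libraries from the protein restricted diet (PR) and 7 from the control diet (Control). The labels give no ages and do not say whether a mouse or its parent ate the diet. They also do not say which libraries share a mouse, a litter or a batch. The p-values below therefore treat the libraries as independent and apply to these libraries only. In the quasi-binomial test described further on, a spread between libraries smaller than counting noise was set to counting noise. At the chromosome starts the median CpG of ordinary depth fell under that level (0.951, where counting noise gives 1).

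Mouse chromosomes carry the centromere at one end, and the assembled sequence of each autosome begins at about 3 Mb, next to the pericentromeric heterochromatin. That heterochromatin is made mostly of tandem major (gamma) satellite repeats, which carry repressive chromatin marks and DNA methylation in somatic cells and are known to be less methylated in mouse sperm. Unique genes and scattered repeats follow within the first megabases, and most CpGs of such sequence are highly methylated in sperm outside promoters and CpG islands.

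Summed counts ran from 6650912 to 11841657 per library and the median coverage of a CpG from 26 to 42, with the highest of both in Control replicate 4. No 2 libraries had identical counts. Every listed position had at least 11 methylated reads in every library, so at ordinary depth CpGs with little methylation are not listed. As a check of the tissue, the shared promoter of Peg10 and Sgce on chromosome 6 (Peg10 at 4747306 to 4760517 in the annotation), which carries a maternal imprint and is unmethylated in sperm, had 0 listed CpGs within 2 kb. Lack of methylated reads and lack of coverage cannot be told apart there. Few promoters of the chromosome starts held any listed CpG (8 of 873 windows, described below), so this check cannot decide the tissue. Markers of other cells were not tested, since the assay reads DNA.

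Promoters were almost unrepresented. Of the 873 promoter windows of the chromosome starts (250 bases before to 50 after a transcription start, RefSeq, GRCm38.p6), 8 held a listed CpG. The motif CCGG, the MspI site, which reads the same on both strands, was present in 47.9% of these 873 windows and in 47.1% of all 32851 promoter windows. Of 717 listed CpGs in any promoter window of the genome, 12 (1.67%) lay inside a CCGG, while all 717 matched a CG in the RefSeq sequence. The 250 bases before the start are shown for the 2 promoters whose listed CpG was partly methylated and for a fully methylated one, each 5′ to 3′ on the strand of its gene, with the listed CpGs in capitals.

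Slc25a45 promoter, chr19:5877572-5877821, plus strand: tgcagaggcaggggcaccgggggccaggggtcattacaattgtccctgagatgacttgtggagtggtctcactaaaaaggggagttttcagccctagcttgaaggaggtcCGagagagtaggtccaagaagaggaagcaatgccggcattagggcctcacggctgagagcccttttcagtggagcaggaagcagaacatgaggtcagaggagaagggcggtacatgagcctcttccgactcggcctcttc
Arhgef18 promoter, chr8:3353187-3353436, plus strand: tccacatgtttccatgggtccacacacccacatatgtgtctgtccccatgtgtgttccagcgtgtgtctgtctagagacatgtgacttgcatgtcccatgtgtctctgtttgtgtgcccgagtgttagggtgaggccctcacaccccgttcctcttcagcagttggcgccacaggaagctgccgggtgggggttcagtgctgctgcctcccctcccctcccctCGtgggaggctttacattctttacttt
Tmem150b promoter, chr7:4725252-4725501, minus strand: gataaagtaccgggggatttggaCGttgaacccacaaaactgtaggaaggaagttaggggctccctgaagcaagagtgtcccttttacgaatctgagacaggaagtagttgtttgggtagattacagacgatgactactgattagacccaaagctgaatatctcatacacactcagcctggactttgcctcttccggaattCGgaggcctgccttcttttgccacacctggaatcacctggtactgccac

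The listed CpG of Slc25a45, which encodes a mitochondrial carrier protein, lies at position 5877682, 140 bases before the start, between the 2 CCGG sites of the printed stretch. It had 52.2%, 62.7% and 65.7% methylation (lowest, median and highest) in PR libraries, against 61.9%, 68.2% and 72.2% in Control libraries. The ranges overlapped, and the difference of -6.34 points had an unadjusted p of 0.225 in the quasi-binomial test described further on, at 32.5 mean counts.

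At Arhgef18 the CpG 27 bases before the start averaged 81.9% ± 5.85 (SD, n = 8) in PR and 79.2% ± 8.07 (SD, n = 7) in Control sperm. Its 3 listed CpGs after the start, which are not printed, averaged between 90.3% and 90.9% in PR and between 91.6% and 92.8% in Control sperm. The 2 listed CpGs of Tmem150b, a transmembrane protein gene, averaged 96.8% and 98.5% in PR sperm and 98.2% and 100% in Control sperm. The other promoters with listed CpGs were those of Gm11946, C6, Gm40591, 3300005D01Rik and Gm13194, where the lowest means were 95.5% in PR and 95.04% in Control sperm.

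The deep CpGs form 12 blocks, taken as runs with gaps of at most 1000 bp. How reads that match several repeat copies were placed is not given, so the reads of a block may come from several copies. A copy without the C at a listed position would be counted as unmethylated there. Differences in sequence between copies were not tested, so low values at single deep CpGs cannot be told apart from them. Over the 84 deep CpGs, methylation averaged 46.9% ± 2.34 (SD, n = 8) in PR sperm and 46.2% ± 2.01 (SD, n = 7) in Control sperm. The difference, 0.724 points, fell within the SD between libraries of a diet, 2.19 points, and 44 of the 84 CpGs had the higher mean in PR and 40 the lower one. The 615 deep CpGs elsewhere in the genome averaged 42.5% ± 3.77 in PR and 40.3% ± 6.27 in Control sperm (SD, n = 8 and 7).

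**Figure D1:**
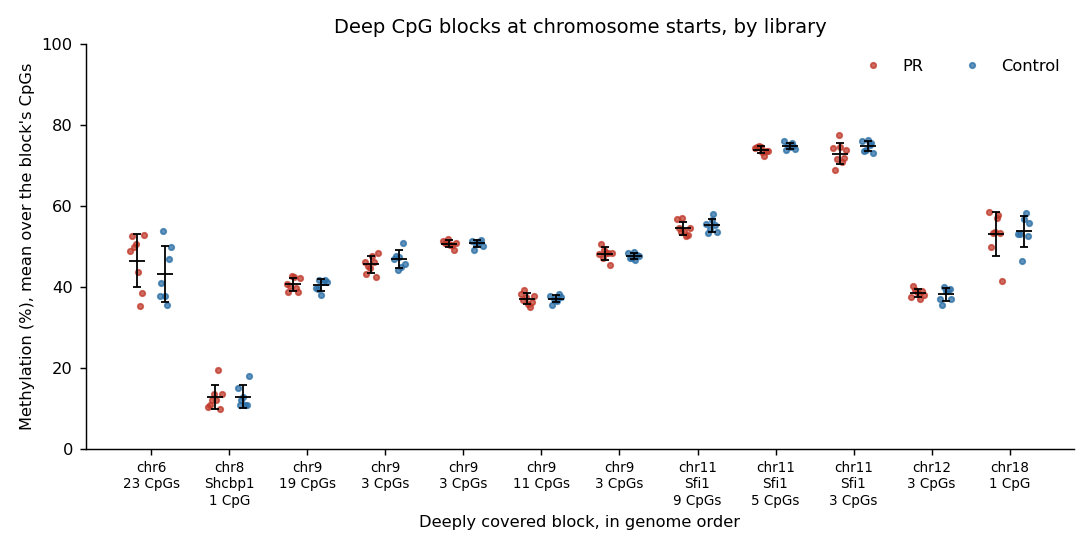
Methylation (percent, mean over the CpGs of a block) of each of the 12 deep blocks in genome order, with 1 point per library, PR left of Control, and the mean and SD of each diet as bars. The diets overlap in every block, the single CpG in Shcbp1 lies lowest with means of 12.6% and 12.8%, and the chromosome 6 block has the widest spread among blocks of more than 1 CpG.

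The start of chromosome 9 holds 39 deep CpGs in 5 blocks between 3000341 and 3025567, a stretch with no gene at any of the blocks. Their mean was 39.6%, 41.7% and 42.5% (lowest, median and highest) in PR libraries, against 40.2%, 41.4% and 42.7% in Control libraries. The diets thus covered almost the same range. The deepest block of all chromosome starts lies here, at 3020493 to 3020539, where 3 CpGs had 12485 mean counts, 390 times the overall median. It had 49.0%, 50.8% and 51.7% in PR libraries, against 49.2%, 51.0% and 51.6% in Control libraries. Its SD between libraries was 0.803 points in PR and 0.816 points in Control, the lowest of the 12 blocks in PR and the third lowest in Control.

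The other chromosome 9 blocks were similar. The block at 3000341 to 3002154 (19 CpGs, 472 mean counts) averaged 40.6% ± 1.58 in PR and 40.4% ± 1.41 in Control sperm (SD, n = 8 and 7). At 3023537 to 3024472 (11 CpGs) the means were 37.0% ± 1.38 and 37.0% ± 0.891 in PR and Control sperm. The block at 3025521 to 3025567 (3 CpGs) averaged 48.2% ± 1.53 in PR and 47.6% ± 0.741 in Control sperm, and the shallowest one, at 3006784 to 3006830 (3 CpGs, 304 mean counts), 45.5% ± 2.06 in PR and 46.8% ± 2.22 in Control sperm. No difference between diets in these blocks exceeded the SD between libraries.

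The CpGs at the start of chromosome 9 recur at a few spacings. Among distances over 150 bp between pairs of them, 234 bp and 22421 bp were the most frequent, with 8 pairs each, and 233 bp and 410 bp followed with 7 pairs. A spacing of 234 bp is the length by which the mouse major satellite repeats. The sequence itself was not analysed here, so the match rests on spacing alone. Folded on 234 bp, 56 of the 59 listed CpGs from 3000341 to 3037918 (39 deep and 20 of ordinary depth) could be placed exactly on 7 offsets. These offsets (0, 12, 40, 58, 100, 116 and 131 bp) are the spacings of the first 7 CpGs of the chromosome. Each run of CpGs was slid along these offsets and placed where at least 3 of its CpGs matched. Neighbouring stretches could take different shifts. Positions 3001465 and 3001698 were both placed at offset 12, although their distance is not a multiple of 234 bp. The number placed therefore does not show a single 234 bp register along the whole stretch. The offsets come from the same positions that they place, and the folding was chosen after the values were seen, so the values per offset are a description.

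Methylation differed more between places in the unit than between diets. The 12 CpGs at offset 58 had a median of 54.7% (38.9% to 59.6%), the 10 at offset 0 a median of 46.3% (33.7% to 53.8%) and the 13 at offset 12 a median of 43.8% (36.0% to 50.04%). The 11 at offset 40 had a median of 41.5%, the 4 at offset 116 one of 31.7% and the 4 at offset 131 one of 31.1%. The lowest offset was 100, where the 2 listed CpGs, at 3000441 and 3024441, had 9.64% and 10.6%. In both copies the CpG 16 bp farther on was over 20 points higher, with 32.4% at 3000457 and 30.9% at 3024457. Averaged over the CpGs of an offset, the largest difference between diets was -1.28 points, at offset 12, with 43.5% ± 1.67 in PR and 44.7% ± 1.54 in Control sperm (SD, n = 8 and 7).

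**Figure D2:**
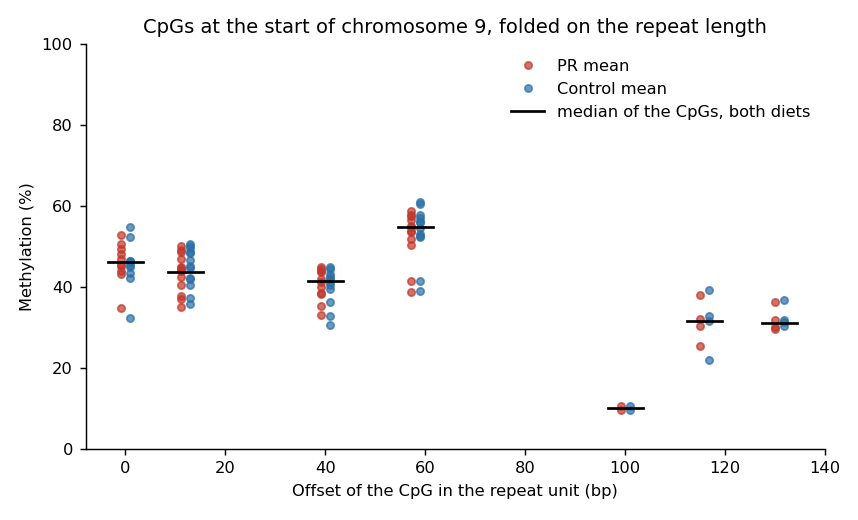
Methylation (percent) of the 56 placed CpGs at the start of chromosome 9 against their offset (bp) in the 234 bp unit, as PR means left of Control means, with the median of the CpGs at each offset as a bar. Offset 58 is highest with a median of 54.7% and offset 100 lowest with 10.1%, in both diets.

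The chromosome 6 block, at 3201231 to 3201576 outside annotated genes, holds 23 CpGs in 346 bp with 2624 mean counts. It had 35.3%, 49.3% and 52.9% (lowest, median and highest) in PR libraries, against 35.5%, 40.8% and 53.7% in Control libraries. Each diet spanned nearly the whole range, and the difference of 3.30 points was under the SD between libraries of a diet, 6.79 points. Single CpGs averaged between 31.2% and 61.1%, except the last, at 3201576, which had 2.77% ± 0.341 in PR and 3.46% ± 0.825 in Control sperm (SD, n = 8 and 7).

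The libraries differed far more in this block than counting error gives. The median dispersion of its CpGs, where counting noise alone gives 1, was 88.2, against 1.48 for the deep CpGs of chromosome 9 and 1.93 for those of chromosome 11. Over the 15 libraries, Pearson's r between the mean of the block and the mean of the partly methylated ribosomal DNA block of chromosome 17 was 0.859. For the same ribosomal block it was 0.531 with the deep CpGs of chromosome 9 and -0.168 with those of chromosome 11. With the mean of the CpGs of ordinary depth outside the chromosome starts, r was 0.739 for the chromosome 6 block and 0.830 for the ribosomal block. For the deep CpGs of chromosomes 9 and 11 it was 0.306 and -0.139. The chromosome 6 block and the ribosomal block thus both moved with the level of these CpGs outside the starts. With the start CpGs of ordinary depth the contrast was absent: r was 0.442 for the chromosome 6 block and 0.418 for the ribosomal block. For the deep CpGs of chromosomes 9 and 11 it was 0.539 and 0.509. Between the chromosome 6 block and the deep CpGs of chromosome 9 r was 0.564. These are descriptions over 15 points that share library and depth, and no relation between the blocks was tested.

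On chromosome 11, 17 deep CpGs lie in 3 blocks within Sfi1, which encodes a centrin-binding protein of the centrosome; the annotation used gives gene spans without exons. The block at 3185961 to 3186342 (9 CpGs, 987 mean counts) had 52.5%, 54.1% and 56.9% in PR libraries, against 53.3%, 55.2% and 58.0% in Control libraries. The next, at 3193509 to 3193596 (5 CpGs, 1220 mean counts), had 72.2%, 74.0% and 74.9% in PR libraries, against 73.9%, 74.8% and 75.9% in Control libraries. The last, at 3195359 to 3195644 (3 CpGs, 460 mean counts), had 68.9%, 72.9% and 77.6% in PR libraries, against 73.1%, 75.03% and 76.2% in Control libraries. Means were lower in PR in all 3 blocks, with differences of -0.786, -0.957 and -1.84 points, and the ranges of the diets overlapped in each. That of the middle block was larger than the SD between libraries of a diet (0.825 points), and those of the outer blocks were smaller.

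Neighbouring deep CpGs in Sfi1 gave sharply different values, and whether copies differ in sequence at these positions was not tested. At 3186276 methylation averaged 5.04% over all libraries and at 3186280, 4 bp away, 84.9%, with 1080 mean counts at each. The CpG at 3186342 had 2.14%, and the one at 3193558 had 10.9% between CpGs of 91.9% at 3193548 and 88.4% at 3193583. These levels held in both diets: 3193558 averaged 10.1% ± 1.04 in PR and 11.8% ± 2.43 in Control sperm (SD, n = 8 and 7).

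Of the remaining blocks, the one on chromosome 12 at 3109911 to 3110026 (3 CpGs, 964 mean counts) had 37.0%, 38.5% and 40.2% in PR libraries, against 35.6%, 39.0% and 40.0% in Control libraries. The single deep CpG of chromosome 18, at 3005482, averaged 53.0% ± 5.51 in PR and 53.7% ± 3.86 in Control sperm (SD, n = 8 and 7). The single deep CpG of chromosome 8, at 4772429 within Shcbp1, whose product binds the adaptor protein Shc, averaged 12.6% ± 2.998 in PR and 12.8% ± 2.74 in Control sperm.

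The depth of the deep blocks varied between libraries more than their methylation did. The share of a library's counts held by the deepest chromosome 9 block had a lowest value of 0.155%, a median of 0.395% and a highest of 0.587% in PR libraries, against 0.212%, 0.623% and 0.807% in Control libraries. The highest library had 5.21 times the lowest. The chromosome 6 block, with 0.438% to 0.776% in PR libraries and 0.481% to 0.851% in Control libraries, varied by 1.94 times. Across the 15 libraries, the share of the deepest chromosome 9 block moved with that of the first chromosome 9 block (r = 0.982), of the block at 3025521 (r = 0.996) and of the first Sfi1 block (r = 0.974), and less with those of the chromosome 6 block (r = 0.403) and the second Sfi1 block (r = 0.429). For the single CpGs of chromosomes 8 and 18 r was -0.121 and 0.0366, and for the remaining blocks between 0.837 and 0.959; shares of 1 total are not independent. The share of the third Sfi1 block varied most, by 17.2 times. Its share and its methylation had r = 0.224, and those of the deepest chromosome 9 block had r = -0.247.

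**Figure D3:**
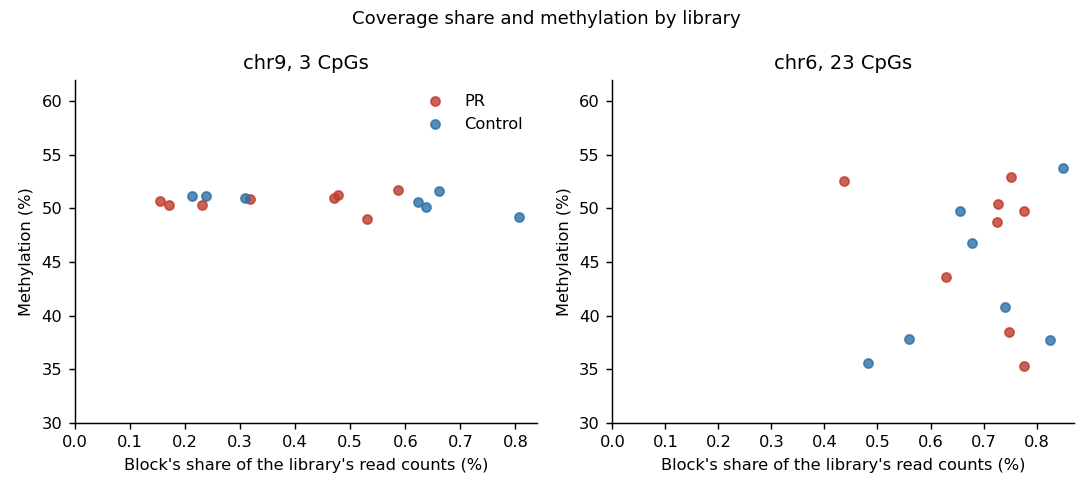
Methylation (percent) against the share of the library's read counts (percent) for the deepest chromosome 9 block (left panel) and the chromosome 6 block (right panel), 1 point per library, PR and Control in separate colours. The chromosome 9 block stays between 49.0% and 51.7% while its share runs from 0.155% to 0.807%, and the chromosome 6 block runs from 35.3% to 53.7%.

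Total counts in windows of 1000 bp were compared between diets with edgeR's quasi-likelihood test, fitted on all 28743 windows of the genome with at least 3 listed CpGs. Of the 570 windows of the chromosome starts, 0 passed an adjusted p of 0.05 (background over all windows 0.00%), and 20 had an unadjusted p under 0.05, where 3.43% of all windows did; with DESeq2 these counts were 0 and 24. The window of the deepest chromosome 9 block had 5595 ± 2667 CPM in PR and 7778 ± 3990 CPM in Control sperm (SD, n = 8 and 7), a log2 ratio of -0.48 (edgeR, adjusted p = 0.9998). The other chromosome 9 windows with a mean coverage of at least 5 times the median and the first Sfi1 window had log2 ratios between -0.31 and -0.46, and the chromosome 6 window one of 0.00. None of these windows passed.

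CpGs of ordinary depth were highly methylated at the chromosome starts, slightly less so than in the rest of the genome. Their mean was 94.4%, 94.7% and 94.8% (lowest, median and highest) in PR libraries, against 94.6%, 94.6% and 94.7% in Control libraries. The means of 94.6% ± 0.139 in PR and 94.7% ± 0.0617 in Control sperm (SD, n = 8 and 7) differed by -0.0313 points, less than the SD between libraries of a diet, 0.1103 points. All other CpGs of ordinary depth averaged 95.5% ± 0.0858 in PR and 95.5% ± 0.129 in Control sperm. The chromosome starts were lower than the rest in 15 of 15 libraries, by 0.903 ± 0.121 points in PR and 0.866 ± 0.096 points in Control libraries. All libraries were read at the same CpGs, so this count is not independent support. It is also not particular to the starts. The highest library value was 94.96% for the next 3 Mb and 95.23% for the last 3 Mb, described below. The lowest library value of the other CpGs was 95.35%.

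The median CpG stood at 98.1% in the starts and 98.2% elsewhere, closer together than the means. Of the 4001 CpGs, 87.0% averaged 90% or more, against 89.997% of other CpGs, and 44 (1.10%) averaged under 50%, against 0.724%. Levels were lowest close to the start of the sequence. The first 0.5 Mb (705 CpGs) averaged 90.6% in PR and 90.6% in Control sperm, and the next 0.5 Mb 95.4% in PR and 95.5% in Control sperm. Without chromosome 9 the first 0.5 Mb averaged 92.2% in each diet. The 3 Mb that follow the chromosome starts, from 6 to 9 Mb, averaged 94.8% ± 0.108 in PR and 94.8% ± 0.107 in Control sperm. The last 3 Mb of listed positions of the chromosomes averaged 95.1% ± 0.114 in PR and 94.999% ± 0.169 in Control sperm.

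**Figure D4:**
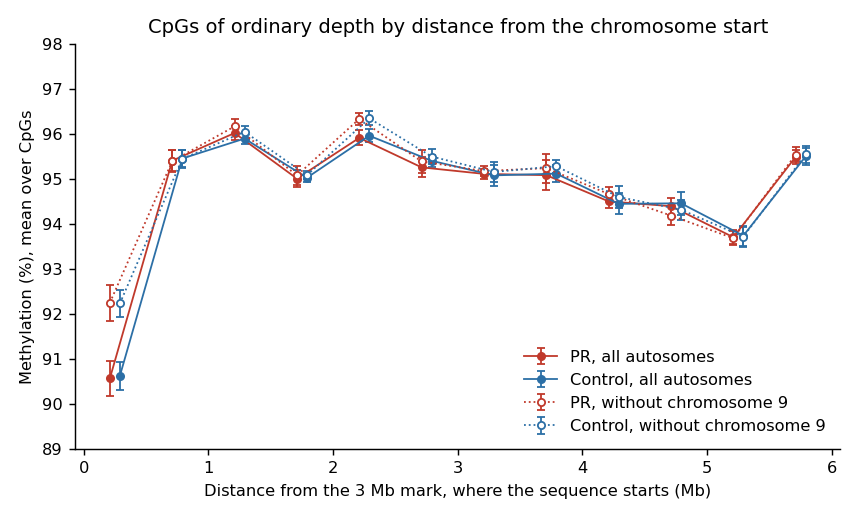
Methylation (percent, mean over CpGs of ordinary depth) in steps of 0.5 Mb from the 3 Mb mark, with SD over libraries, PR left of Control at each step; dotted lines and open points leave out chromosome 9. The first step lies lowest, at 90.6% in each diet, or 92.2% without chromosome 9, and the diets overlap throughout.

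Chromosomes differed far more than diets. Of the 19 starts, 12 averaged lower than the rest of their chromosome. The lowest was chromosome 9, with 79.9% ± 0.742 in PR and 80.8% ± 0.599 in Control sperm (118 CpGs, SD, n = 8 and 7), where the rest of the chromosome averaged 95.8%. Chromosome 3 followed with 87.0% ± 1.05 in PR and 86.4% ± 0.838 in Control sperm (84 CpGs), and chromosome 13 with 90.1% ± 0.409 in PR and 89.98% ± 0.161 in Control sperm (186 CpGs). Among the 863 bins of 3 Mb over the genome with at least 10 such CpGs, counted from the lowest, they ranked 7, 24 and 64.

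The chromosome 9 value rests partly on 23 CpGs of ordinary depth under 3.1 Mb, in and beyond the stretch of the deep blocks, that averaged 47.8%. From 3.1 Mb on, the start of chromosome 9 averaged 88.2%. Without these 23 the chromosome starts as a whole averaged 94.9%, against 94.6% with them. The highest starts were those of chromosome 2 with 97.5% ± 0.157 in PR and 97.5% ± 0.132 in Control sperm, chromosome 5 with 97.2% ± 0.148 in PR and 97.1% ± 0.365 in Control sperm, and chromosome 10 with 96.6% ± 0.245 in PR and 96.7% ± 0.161 in Control sperm. The median start was at 95.3% and the median of the other bins at 95.7%; 8 of 19 starts lay under 95%, as did 34.95% of the other bins. The position of the starts among other bins was not tested.

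**Figure D5:**
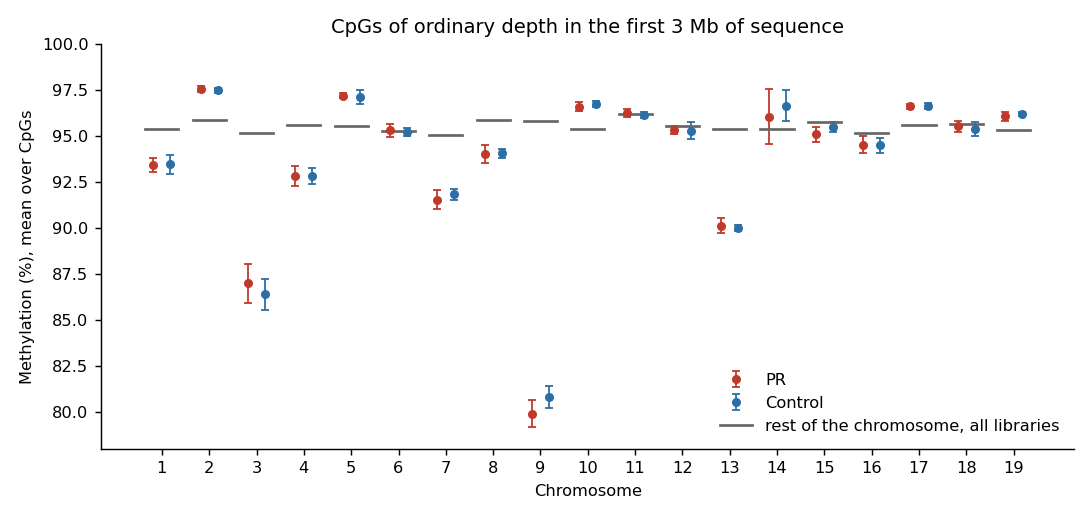
Methylation (percent, mean over CpGs of ordinary depth) of the first 3 Mb of sequence of each autosome, PR left of Control, as mean and SD over libraries, with the rest of the chromosome as a grey bar; the axis starts at 78%. Chromosomes 9, 3 and 13 lie lowest, and the diets lie close together on every chromosome.

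No chromosome start passed the test between diets. In the limma fit over all 863 bins, 0 of 19 starts passed an adjusted p of 0.05 (background 0.00%), and 2 had an unadjusted p under 0.05, where 3.01% of all bins did. These were chromosome 9, at -0.880 points (SE 0.326, limma adjusted p = 0.998), and chromosome 15, at -0.384 points (SE 0.173, limma adjusted p = 0.998). PR had the higher mean in 9 starts and the lower one in 10.

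For single CpGs, methylated over total counts were modelled on diet in a quasi-binomial logistic regression, fitted on all 204492 CpGs with Benjamini-Hochberg adjustment. At the chromosome starts 0 of 4085 passed an adjusted p of 0.05 (background 0.00%). An unadjusted p under 0.05 was reached by 167 (4.09%), close to the 3.79% of all CpGs, with the higher mean in PR for 86 (background 1.89%) and the lower one for 81 (background 1.90%). With limma the counts were 0 adjusted and 190 unadjusted. Of the 4001 CpGs of ordinary depth, 1953 had the higher mean in PR, 2035 the lower one and 13 equal means, and no difference exceeded 13.7 points. The spread between libraries at ordinary depth was close to counting noise: the median dispersion was 0.951 at the starts and 0.953 elsewhere, and the median SD within a diet was 2.52 points per CpG.

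The CpGs with the smallest p are given as values, none of which passed. They were picked for their p, so ranges that do not overlap among them are no further support. The smallest among those higher in PR was chromosome 3 position 5032057, outside genes, with 64.6%, 73.6% and 78.6% (lowest, median and highest) in PR libraries, against 53.3%, 59.5% and 72.7% in Control libraries, and the ranges overlapped. In Plcxd3, a phospholipase-like gene, position 4539377 had 94.1%, 96.5% and 98.4% in PR libraries, against 88.3%, 91.5% and 93.4% in Control libraries. These ranges did not overlap, at an adjusted p of 1 in the quasi-binomial test. The others higher in PR were chromosome 17 position 4333294, chromosome 19 position 4259453 near LOC102631992, chromosome 3 position 3327005, with 90.1% ± 4.41 in PR and 82.7% ± 2.82 in Control sperm, and position 4737433 in Sgce, with 99.1% ± 1.76 in PR and 95.1% ± 3.22 in Control sperm (SD, n = 8 and 7).

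Among CpGs lower in PR, position 3193480 in Sfi1, 29 bp before the second deep block and of 73.7 mean counts, had 69.2%, 79.3% and 88.3% in PR libraries, against 83.3%, 87.5% and 89.1% in Control libraries. Position 3956941 in Plekhg1 averaged 91.5% ± 2.66 in PR and 98.4% ± 2.11 in Control sperm. In Asxl2, a Polycomb-related chromatin gene (3491513), Cdk6, a cell cycle kinase (3470097), and Hspa14, an Hsp70 family member (3500343), all Control libraries were at 100% and PR sperm averaged 95.1%, 96.5% and 98.1%. Chromosome 18 position 4808974 averaged 96.3% ± 2.64 in PR and 99.7% ± 0.727 in Control sperm. All 6 had an adjusted p of 1 in the quasi-binomial test.

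In windows of 1000 bp the same model gave 0 of 570 windows of the chromosome starts at an adjusted p of 0.05 (background 0.00%), and 24 (4.21%) at an unadjusted p under 0.05, against 3.33% of all 28743 windows. Of the 24, 9 were higher in PR (background 1.64%) and 15 lower (background 1.69%); with limma the counts were 0 adjusted and 34 unadjusted. The smallest p among the lower ones was in Plekhg1 (chromosome 10, 3956001 to 3957000), which had 88.5%, 91.7% and 93.3% in PR libraries, against 94.4%, 98.2% and 100% in Control libraries (quasi-binomial adjusted p = 0.999). The ranges did not overlap, but the window was picked for its p and holds the Plekhg1 CpG named above. Chromosome 4 window 3358001 to 3359000, outside genes, had 86.3%, 90.7% and 96.2% in PR libraries, against 93.5%, 95.1% and 96.6% in Control libraries.

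The other windows lower in PR were small differences near full methylation, of -1.84 points outside genes on chromosome 19 (from 5809001), -1.24 points in Mterf1a, which encodes a mitochondrial transcription termination factor, -1.34 points in Sf3b2, a subunit of the SF3B splicing complex, and -1.27 points in Scaf8, an RNA polymerase II tail-binding protein. Of the windows higher in PR, the one with the smallest p lay outside genes on chromosome 3 (3327001 to 3328000), with 91.4%, 93.2% and 95.3% in PR libraries, against 88.5%, 89.7% and 91.3% in Control libraries, which did not overlap. That window was also picked for its p, and it holds the CpG at 3327005 named above. The Cdk6 window (from 3407001) averaged 99.0% ± 1.23 in PR and 96.7% ± 1.66 in Control sperm, and the Sgce window (from 4737001) 98.9% ± 1.40 in PR and 96.6% ± 1.19 in Control sperm (SD, n = 8 and 7). The windows in Dync1i1, a dynein intermediate chain, and outside genes on chromosomes 8 (from 5575001) and 19 (from 5933001) differed by 1.40, 1.95 and 1.96 points. Among the 10 windows whose mean coverage was at least 5 times the median, 1 had an unadjusted p under 0.05, the second Sfi1 window, with 75.3% ± 0.653 in PR and 76.4% ± 0.877 in Control sperm (quasi-binomial adjusted p = 0.999).

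Among windows with a mean coverage under 5 times the median, the 10 of lowest methylation had 4 on the first 0.1 Mb of chromosome 9, from 3002001, 3004001, 3023001 and 3090001, and 1 at 3499001 near Gm5362. Those from 3002001 and 3023001 also hold deep CpGs, which enter their values. At 3002001 methylation was 26.0%, 37.3% and 43.3% in PR libraries, against 25.8%, 35.3% and 41.3% in Control libraries, and at 3023001 it was 35.1%, 37.7% and 42.4% in PR libraries, against 36.9%, 38.2% and 42.2% in Control libraries. The window of chromosome 4 at 3090001, at 139 mean counts per CpG near the depth bound, averaged 45.0% ± 1.83 in PR and 44.2% ± 1.46 in Control sperm. The others lay on chromosome 17 (from 4974001), chromosome 13 (from 4211001 and 4350001) and chromosome 6 (from 4418001, in the span or flank of Gm46948), with means between 49.2% and 60.5% in PR and between 46.6% and 59.2% in Control sperm. The diets overlapped in all 10.

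Of the 44 CpGs of ordinary depth under 50%, 16 lie on chromosome 9. Those at protein-coding genes included single CpGs in Morc2a, an ATPase of heterochromatin silencing, at 29.1% (123 mean counts), Akap12, a protein kinase A scaffold, at 30.9%, Atad2b, a bromodomain ATPase, at 34.2%, and Dync1i1 at 36.2%. A pair at Pex2, a peroxisome biogenesis factor, had 36.5% and 38.0%, and Adcy9, an adenylate cyclase, had one of 48.0%. Every listed position had at least 11 methylated reads in each library, and the 44 had mean counts of 39.7 or more, above the overall median of 32.

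Listed CpGs covered only some genes of the chromosome starts, and the levels below are of listed CpGs, which leave out those with few methylated reads. The annotation has 1629 genes that start there, 494 of them with listed CpGs of ordinary depth, and 67.0% of these CpGs lie in a gene or within 2 kb. The 10 genes with the most CpGs were Frmd4a, a scaffold of cell polarity (62 CpGs), Ppp1r9a or neurabin (53), the palmitoyltransferase Zdhhc14 (51), the BAF complex subunit Arid1b (50), the kinases Cdk14 and Cdk6 (46 each), Akap12 (40), the calmodulin kinase Camk1d (37), Klhl29 (37) and the oestrogen receptor Esr1 (34). Frmd4a averaged 98.5% ± 0.311 in PR and 98.5% ± 0.218 in Control sperm, with no CpG under 95.8%. Esr1 was the lowest of the 10, with 93.7% ± 0.508 in PR and 94.0% ± 0.788 in Control sperm. In Akap12 a single CpG of 30.9% stood apart, while the gene averaged 95.4% ± 0.534 in PR and 95.2% ± 0.468 in Control sperm.

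Gene lists of the chromosome starts held no CpG that passed the adjusted test. The imprinted cluster on chromosome 6, around the paternally expressed Peg10 and Sgce, held CpGs at 11 of its 16 genes, 127 in all. Means in PR were higher at 65 of these and lower at 60, and 6 (4.72%) had an unadjusted p under 0.05, where 3.79% of all CpGs did. Its median difference was 0.0552 points, against -0.0276 over all CpGs of ordinary depth of the starts. Its mean was 96.4% ± 0.186 in PR and 96.1% ± 0.283 in Control sperm (SD, n = 8 and 7), a difference of 0.305 points that was larger than the SD between libraries of a diet, 0.236 points, with overlapping ranges. The 5 CpGs of Peg10, a retrotransposon-derived gene needed in the placenta, averaged 85.3% ± 3.32 in PR and 81.5% ± 4.55 in Control sperm. The difference was smaller than the SD between libraries of a diet, 3.93 points, and the ranges overlapped. All 5 had the higher mean in PR, as did 1953 of the 4001 CpGs of ordinary depth of the starts. Neighbouring CpGs can share reads, so the 5 are not independent. An unadjusted p under 0.05 in the quasi-binomial test was reached by 0 of the 5. The 18 CpGs of Sgce, which encodes epsilon-sarcoglycan, averaged 98.4% ± 0.604 in PR and 97.7% ± 0.417 in Control sperm (SD, n = 8 and 7).

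The metabolic and hormone list held CpGs at 16 of 22 genes, 196 in all, with 94 of higher mean in PR, 102 of lower mean and 5 (2.55%) at an unadjusted p under 0.05, against 3.79% of all CpGs, with a median difference of -0.0317 points. Insr, the insulin receptor, averaged 97.2% ± 1.27 in PR and 96.9% ± 1.31 in Control sperm, and Ghr, the growth hormone receptor, 98.3% ± 0.503 in PR and 98.8% ± 0.505 in Control sperm. Castor1, an arginine sensor of the mTORC1 pathway, had the lowest mean of the list, with 2 CpGs at 54.0% ± 5.73 in PR and 52.4% ± 4.62 in Control sperm (SD, n = 8 and 7). Partly methylated single CpGs also lay in other members, with lowest values of 48.0% in Adcy9, 54.7% in Prkaa1, 55.0% in Esr1 and 68.2% in Hnf4g.

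In the list of chromatin and DNA methylation genes 11 of 14 held CpGs, 151 in all. PR had the higher mean at 72 of these and the lower one at 79, with 5 (3.31%) at an unadjusted p under 0.05, against 3.79% of all CpGs, and a median difference of -0.0534 points. Dnmt3a, a de novo DNA methyltransferase, averaged 97.4% ± 0.926 in PR and 96.8% ± 0.834 in Control sperm, and Morc2a 82.7% ± 1.40 in PR and 81.6% ± 2.09 in Control sperm. Whether the genes of the list called long neuronal genes are particular to neurons was not tested. That list shares Ppp1r9a, Arid1b and others with the lists above and held CpGs at 15 of 15 genes, 442 in all. Of these 212 had the higher mean in PR and 226 the lower one, with 14 (3.17%) at an unadjusted p under 0.05, against 3.79% of all CpGs, and a median difference of -0.0404 points. Xkr4, a neuronal scramblase-related gene at the start of chromosome 1, was the lowest of them, with 86.7% ± 1.96 in PR and 86.1% ± 2.89 in Control sperm (SD, n = 8 and 7).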

How the data were processed

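Sperm DNA of 8 PR and 7 Control libraries was measured by reduced representation bisulfite sequencing. The files the authors deposited hold 2 raw read counts per CpG, methylated and total. The submitters' processing notes name Bismark 0.7.12, Bowtie2 2.1.0 and mm10 without a role, with filtering and the placing of reads that match several repeat copies not given in the sources used here. Samples were grouped by the diet in the labels. Replicates are numbered in accession order and pair nothing.

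Percent methylation is methylated over total counts, and a mean over CpGs is unweighted. CpGs and windows of 1000 bp (at least 3 CpGs) were tested with a two-group quasi-binomial logistic model (dispersion at least 1, F test on 13 residual degrees of freedom), computed in Python 3.11.15 with SciPy 1.17.1. Bins of 3 Mb were tested with limma 3.58.1, and window counts with edgeR 4.0.16 (TMM) and DESeq2 1.42.0, in R 4.3.3. Every test was fitted on the whole genome, with Benjamini-Hochberg adjustment at 0.05. The quasi-binomial tests, limma on bins and edgeR were also run on simulated data. DESeq2 and limma on CpGs and windows were not. The quasi-binomial simulation held counting noise only, without the added spread between libraries seen in the chromosome 6 block. Differences of means over the chosen CpGs were given no p. Alternatives were other tests, windows of 500 and 2000 bp, at least 20 reads in every library, other depth and position bounds, summed counts, and each library left out.

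The members and gene lists were chosen with earlier results of these data known. Named were the deep blocks, in each of the CpG and window tests the 6 units of smallest p in each direction (1 per gene), the 10 lowest windows, the 10 genes with most CpGs, the 3 lowest and 3 highest starts, and list genes, of which examples are given. The rule names only the 10 deepest blocks; the other 2 were added for completeness. Single CpGs under 50%, the promoters and the folding on the repeat length were chosen after their values were seen. A unit was assigned to a gene whose RefSeq span (GRCm38.p6), or 2 kb on either side, holds it; strands of genes other than at promoters, exons and UTRs were not used here. Reads carry no molecular identifiers, and a read is counted once for each CpG it covers, so the counts behind a value are not independent molecules.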

Additional observations from a re-analysis of the deposited data

Results flagged for a closer look

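In 208 groups of 7 or 8 libraries, 11 values lay far from the others of their diet by Dixon's test, where chance gives about 1 in 20 groups. Depth comes first: Control replicate 4 had 11841657 summed counts, where the next library of its diet had 9333437, and a median coverage of 42 both over all CpGs and over those of ordinary depth at the chromosome starts, where the next had 33. The chromosome 6 block held 0.438% of the counts of PR replicate 2, against 0.630% to 0.776% in the other PR libraries. At the deep CpG in Shcbp1, PR replicate 6 had 19.3%, against 9.87% to 13.5%.

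The chromosome 9 window from 3002001 had 25.8% in Control replicate 1, against 35.1% to 41.3% in the other Control libraries. The Cdk6 window from 3407001 had 100% in Control replicate 7, against 95.3% to 97.2%, and the Dync1i1 window from 5913001 had 95.4% in PR replicate 8, against 97.1% to 98.2%. Chromosome 18 position 4808974 had 98.1% in Control replicate 3 and 100% in every other Control library. The start of chromosome 8 averaged 93.0% in PR replicate 7, against 93.9% to 94.7%, and that of chromosome 16 93.5% in PR replicate 6, against 94.5% to 95.02%.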

How the results depend on the processing

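No paired analysis was possible because the labels give no replicate numbers shared between the diets. No CpG, window or bin of the chromosome starts passed an adjusted p of 0.05 under any alternative, and the numbers at an unadjusted p under 0.05 ran from 79 to 190 CpGs, from 18 to 34 windows and from 0 to 3 bins. In the coverage test 0 windows passed throughout and 13 to 40 had an unadjusted p under 0.05, with 40 without Control replicate 4, 34 without PR replicate 8 and 13 without PR replicate 2. The difference at ordinary depth lay between -0.0543 and -0.000136 points with each library left out, and was 0.0525 points from summed counts and 0.00974 points under 4.5 Mb, so its sign is not settled. For the deep CpGs the difference was 0.412 to 1.27 points with each library left out, 1.87 from summed counts and 0.967 at 10 times the median or more. Leaving out libraries for single blocks was added after seeing the data: the difference was 2.03 to 5.06 points on chromosome 6, -0.126 to 0.311 on chromosome 9 and -1.36 to -0.734 in Sfi1. At a median coverage of 26 to 42, the median SD within a diet of a single CpG of ordinary depth was 2.52 points.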
